A study of Mus musculus with 4 samples.

Results

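The regions described here are the first 1 Mb of assembled sequence of each of the 19 mouse autosomes, from position 3000001 to 4000000 in the mm8 build. They were defined by position alone, not by any measured value, though earlier results of these data were known when they were chosen. Cut into tiles of 4 kb they make 4750 tiles, 250 for each chromosome, of 657675 tiles on chromosomes 1 to 19, X and Y. For comparison, the stretch from 8000001 to 13000000 of the same chromosomes, 5 to 10 Mb from the start, holds 23750 tiles and is called further in below.

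Chromatin immunoprecipitation followed by sequencing (ChIP-seq) had been carried out on MDER 10T cells, a mouse fibroblast line in which, by the series title, MyoD1 can be induced with estrogen. Their medium was DMEM/F12 free of phenol red, supplemented with 10% FCS, and the labels name no estrogen treatment, no promoter for the transgene and no clone. The groups were H3K4me3, H3K27me3 and H3K9me3, each precipitated with an Abcam antibody, and whole-cell extract (WCE), sequenced without precipitation as the control. Each group held 1 library, so no replicate spread exists, and every test below compares libraries and not conditions.

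Mouse chromosomes carry their centromere at one end, where the lower coordinates of the assembly begin. The centromere is built of minor satellite repeats and is flanked by long arrays of major satellite repeats, which the assembly replaces with a placeholder gap, so the first assembled bases are the mapped sequence nearest to the pericentromere. Pericentromeric heterochromatin is known for H3K9me3, which Suv39h enzymes deposit and HP1 proteins bind, whereas H3K4me3 marks active promoters and H3K27me3 is laid down by Polycomb complexes over silenced genes. The files list read positions in mm8, and a genome and gene annotation of that build were not used here. Regions are therefore named by position, none is assigned to a gene or a repeat, and whether the first tiles hold satellite sequence could not be checked.

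After 1 read was kept per position and strand, reads with 1 reported position numbered 26200 for H3K4me3, 20105 for H3K27me3, 16945 for H3K9me3 and 22924 for WCE in the starts. These were 0.849%, 0.685%, 0.806% and 0.770% of the autosomal reads of the same libraries, which came to 2101444 to 3086567. A tile of the starts held a median of 3 WCE reads, against 4 further in. The starts were uneven. In 767 tiles (16.1%) no library had a read, against 1838 tiles (7.74%) further in, and the fullest tile had 335 WCE reads, against 41 further in. Chromosome 14 was almost unmeasured, with 193 of its 250 tiles empty, its first read 68 kb from the start and 42 WCE reads in all. On chromosome 19 the first read lay 76 kb in. The start of chromosome 11 held 4414 WCE reads, 5.30 times the density further in on that chromosome, the start of chromosome 5 held 2.28 times and that of chromosome 9 held 1.74 times the density further in.

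Pooled over the autosomes, the 3 marks differed along the starts. H3K9me3 was above WCE in the first 100 kb and not in the rest, though single chromosomes differed. H3K4me3 was called enriched in 3.38% of tested tiles, against 1.65% further in. H3K27me3 was below WCE, as it was further in, and its side of 1 at the starts depended on the scaling. Each ratio divides a mark's share of its autosomal reads by that of WCE, so 1 is the autosomal mean, and brackets give 95% exact (Clopper-Pearson) intervals, which cover counting error only.

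In the first 100 kb of the 19 autosomes, 4894 H3K9me3 reads faced 4856 WCE reads, a ratio of 1.43 (1.37 to 1.49). In the following 900 kb, 12051 H3K9me3 reads faced 18068 WCE reads, a ratio of 0.945 (0.923 to 0.967). The intervals do not overlap. In steps of 20 kb the H3K9me3 ratio was 1.67 (1.53 to 1.82), 1.41 (1.29 to 1.55), 1.38 (1.28 to 1.501), 1.27 (1.15 to 1.39) and 1.40 (1.28 to 1.54), and at 100 to 120 kb it was 0.955 (0.774 to 1.18). The excess from 40 to 100 kb depends on chromosome 11, which gave 2903 of the 4856 WCE reads. Without it the same 5 steps had ratios of 1.66, 1.34, 1.13, 1.08 and 0.822, and the intervals of the last 3 included 1. Single tiles weighed heavily in these steps too. The first tile of chromosome 5 held 335 of the 949 WCE reads of the first step without chromosome 11. In the second step, with 565, the chromosome 9 tiles at 3024001, 3032001 and 3036001 held 129, 92 and 84. In the first 100 kb the other marks were below WCE, H3K4me3 at 0.771 (0.739 to 0.804) and H3K27me3 at 0.814 (0.780 to 0.849). This side of 1 depends on the scaling by autosomal totals. The median autosomal bin of 100 kb with at least 50 WCE reads had 0.603 for H3K4me3 and 0.836 for H3K27me3. The H3K4me3 value lay above that median, and the H3K27me3 interval included it. Without chromosome 11, however, H3K4me3 was above WCE from 40 to 60 kb, at 1.43 (1.15 to 1.79), and from 60 to 80 kb, at 2.15 (1.74 to 2.65). Those values rest on chromosome 17, and without both chromosomes they were 0.728 (0.535 to 0.989) and 0.909 (0.683 to 1.21).

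**Figure D1:**
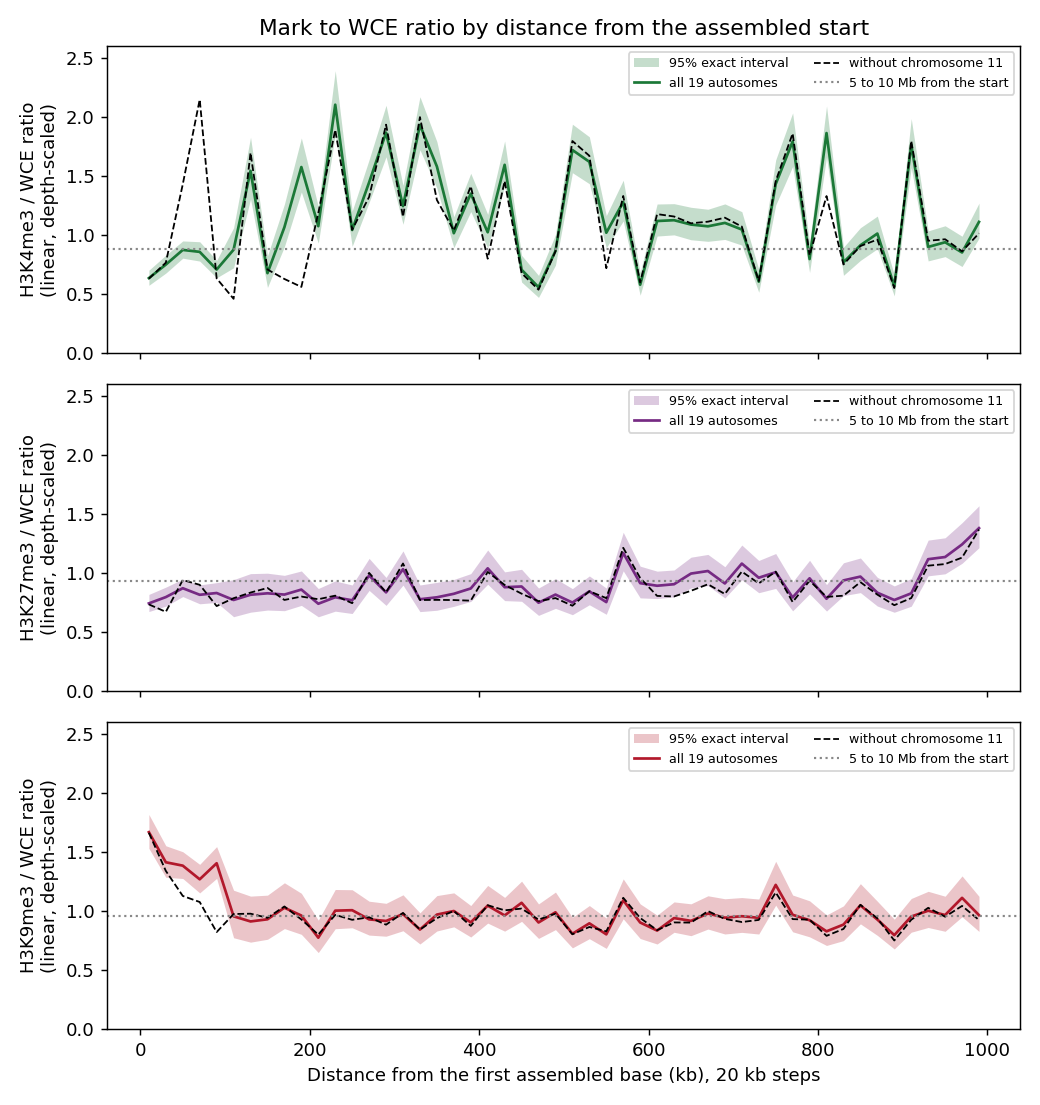
Mark to WCE ratio (linear axis) in 20 kb steps by distance from the first assembled base (kb), one panel per mark. Lines pool the 19 autosomes with 95% exact intervals (bands), dashed lines leave out chromosome 11 and dotted lines give the ratio further in. The H3K9me3 ratio was between 1.27 and 1.67 in the 5 steps of 20 kb up to 100 kb and 0.955 in the step after them.

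H3K9me3 in the first 100 kb differed between chromosomes. Only 9 chromosomes had at least 50 WCE reads there, and the other 10 had at most 30, too few to describe one by one. Among the 9, the ratio was above 1 on 7, with the interval above 1 on 5, and it exceeded the ratio of the chromosome's own following 900 kb on 8. The highest was on chromosome 3, where 181 H3K9me3 reads faced 81 WCE reads, a ratio of 3.17 (2.42 to 4.17), against 0.968 in its following 900 kb. Chromosome 4 followed at 2.39 (1.96 to 2.93) against 0.945. Chromosome 9 had 1.44 (1.29 to 1.60) against 0.737, chromosome 11 had 1.43 (1.36 to 1.51) against 1.07 and chromosome 5 had 1.36 (1.16 to 1.58) against 0.921. Chromosomes 3 and 4 stood above the other 7, whose intervals did not reach theirs. Chromosome 17 went the other way, with an H3K9me3 ratio of 0.713 (0.531 to 0.951) in its first 100 kb, where its H3K4me3 ratio was 2.59 (2.14 to 3.16).

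Single tiles show where these reads lay. A tile was called enriched at a Benjamini-Hochberg adjusted p under 0.05 in a one-sided exact binomial test on reads, with a ratio of at least 2. For H3K9me3, 6 of 3802 tested tiles of the starts were called (0.158%), against 3 of 21346 (0.0141%) further in and 0.0195% of all tiles tested. All 6 lay in the first 100 kb, on chromosomes 3, 4 and 11. At the very edge of chromosome 3, the tile at 3000001 to 3004000 held 35 H3K9me3 and 11 WCE reads, that at 3012001 to 3016000 held 33 and 11, and that at 3016001 to 3020000 held 40 and 14. Their ratios were 4.51, 4.25 and 4.05, with adjusted p of 0.0170, 0.0410 and 0.0117 in the one-sided exact binomial test. All 3 thus missed an adjusted p under 0.01. The called tiles on chromosomes 4 and 11, given below, had ratios under 3, so no called tile met both stricter thresholds. Together the 5 tiles of the first 20 kb of chromosome 3 held 166 H3K9me3, 81 H3K27me3 and 74 H3K4me3 reads against 61 WCE reads, an H3K9me3 ratio of 3.86 (2.86 to 5.26). Beyond them the chromosome was sparse in all 4 libraries.

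On chromosome 4 the tile at 3008001 to 3012000 held 157 H3K9me3 and 80 WCE reads, a ratio of 2.78 (2.11 to 3.69). It lies in a run of 4 WCE-rich tiles from 3004001 to 3020000, whose 266 H3K9me3 reads against 158 WCE reads gave a ratio of 2.39 (1.95 to 2.92). On chromosome 11 the called tiles were 3092001 to 3096000, with 308 H3K9me3 and 190 WCE reads (2.30), and 3048001 to 3052000, with 222 and 155 (2.03). In both, H3K4me3 and H3K27me3 also gave more than 100 reads, with 235 and 221 in the tile at 3092001 and 116 and 141 in that at 3048001. So in these tiles H3K9me3 was a modest excess over a high level in every library, whereas in the 3 called tiles of chromosome 3 WCE held 11 to 14 reads, themselves above the median of 3, and H3K4me3 and H3K27me3 held 11 to 20.

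Tiles with many WCE reads were frequent at the starts but not confined to them. Of 48 autosomal tiles with at least 50 WCE reads, 27 lay in the starts, all within the first 100 kb, and 0 further in. These 27 were on 5 chromosomes, with a median ratio of 1.33 for H3K9me3 (1.06 to 2.78), 0.762 for H3K27me3 and 0.619 for H3K4me3. The other 21 such tiles of the autosomes held up to 2021 WCE reads each, against up to 335 in those of the starts. They had medians of 1.24 (0.472 to 1.67), 0.768 and 0.577, so the median H3K9me3 ratio was above 1 in both sets. H3K9me3 was above 1 in 16 of those 21 tiles and in all 27 of the starts. The pooled H3K27me3 ratio was 1.08 in the 21 tiles and 0.797 in the 27. The longest run of WCE-rich tiles was 72 kb of chromosome 11, from 3028001 to 3100000, with 2866 H3K9me3, 2411 H3K27me3 and 2118 H3K4me3 reads against 2829 WCE reads. Its ratio was 1.44 (1.36 to 1.51) for H3K9me3, 0.865 (0.819 to 0.914) for H3K27me3 and 0.722 (0.682 to 0.764) for H3K4me3, and H3K9me3 was above 1 in 18 of its 18 tiles. On chromosome 9 the run from 3012001 to 3040000 held 534 H3K9me3, 307 H3K27me3 and 301 H3K4me3 reads against 538 WCE reads, with ratios of 1.41, 0.579 and 0.540.

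The fullest tile of the starts was the first of chromosome 5, from 3000001 to 3004000, with 323 H3K9me3, 202 H3K27me3 and 211 H3K4me3 reads against 335 WCE reads. Its H3K9me3 ratio was 1.37. The 48 tiles of the starts with the most WCE reads, 1% of them, held 26.6% of the H3K9me3 reads of the starts and 19.7% of the WCE reads. Their H3K9me3 ratio was 1.42 (1.36 to 1.48), and that of the remaining tiles was 0.957.

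**Figure D2:**
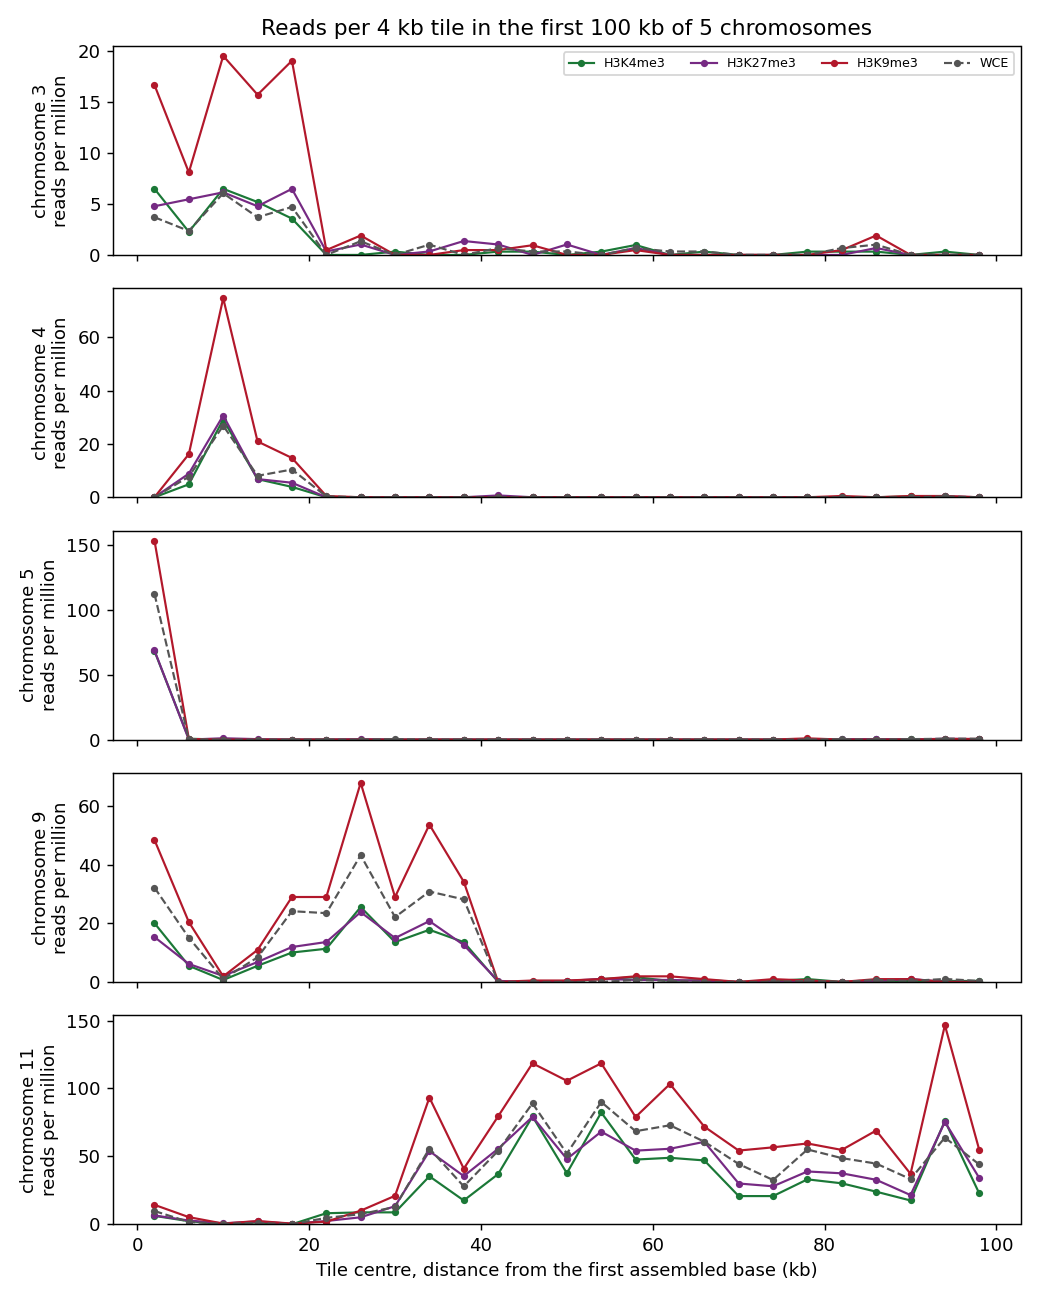
Depth-scaled reads (RPM of the autosomes, linear axes that differ between panels) in each 4 kb tile of the first 100 kb of chromosomes 3, 4, 5, 9 and 11, for the 3 mark libraries (solid) and WCE (dashed). On chromosome 11 every library is high, with up to 268 WCE reads in a tile, whereas on chromosome 3 the H3K9me3 library stands above the others in the first 20 kb.

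Repeated positions, where several reads share a position and strand, were also more frequent at the edge, and whether they are amplified copies was not tested. They made up 17.9% of H3K9me3 reads, 11.2% of H3K27me3 reads, 11.5% of H3K4me3 reads and 13.7% of WCE reads in the first 100 kb before they were removed, against 8.76%, 6.96%, 6.30% and 6.39% further in. On chromosome 9 the shares were 38.9%, 23.4%, 23.5% and 33.4%, and on chromosome 5 they were 34.4%, 19.7%, 22.3% and 29.1%. Chromosome 11, with 2903 of the 4856 WCE reads kept there, had shares closer to those further in, at 10.7%, 9.33%, 6.58% and 6.84%. With the repeats kept, the H3K9me3 ratio of the first 100 kb was 1.47 (1.42 to 1.53).

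Taken over the whole first 1 Mb, the H3K9me3 excess was small. The pooled ratio was 1.05 (1.03 to 1.07), against 0.954 further in. The start over further in, an odds ratio of reads that does not depend on the scaling, was 1.10 (1.07 to 1.12, two-sided Fisher's exact test on reads, p = 1.72e-16). Without the first 100 kb it was 0.990, and for the first 100 kb alone it was 1.5 (1.44 to 1.56). Without chromosome 11 the pooled start ratio was 0.985 and the start over further in was 1.03. By chromosome, with p adjusted over 57 tests (19 chromosomes and 3 marks), H3K9me3 was higher at the start on 6 chromosomes and lower on 1. Of the 6, chromosome 3 was at 1.49 (1.29 to 1.73), chromosome 4 at 1.36 (1.21 to 1.52) and chromosome 9 at 1.32 (1.19 to 1.45). Chromosome 11 was at 1.29 (1.21 to 1.38), chromosome 5 at 1.27 (1.14 to 1.41) and chromosome 19 at 1.22 (1.14 to 1.31). On chromosome 19 the excess lay outside the first 100 kb, which held 0 H3K9me3 reads and 1 WCE read. The H3K9me3 ratio of its following 900 kb was 1.10 (1.04 to 1.17). The lower one was chromosome 17 at 0.678 (0.620 to 0.742), whose start ratio of 0.800 lay below all 5 of its regions of 1 Mb further in (1.04 to 1.41). Single regions of 1 Mb further in differed among themselves too: on chromosome 5 they ran between 0.725 and 1.21 and the start, at 1.05, lay within them.

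**Figure D3:**
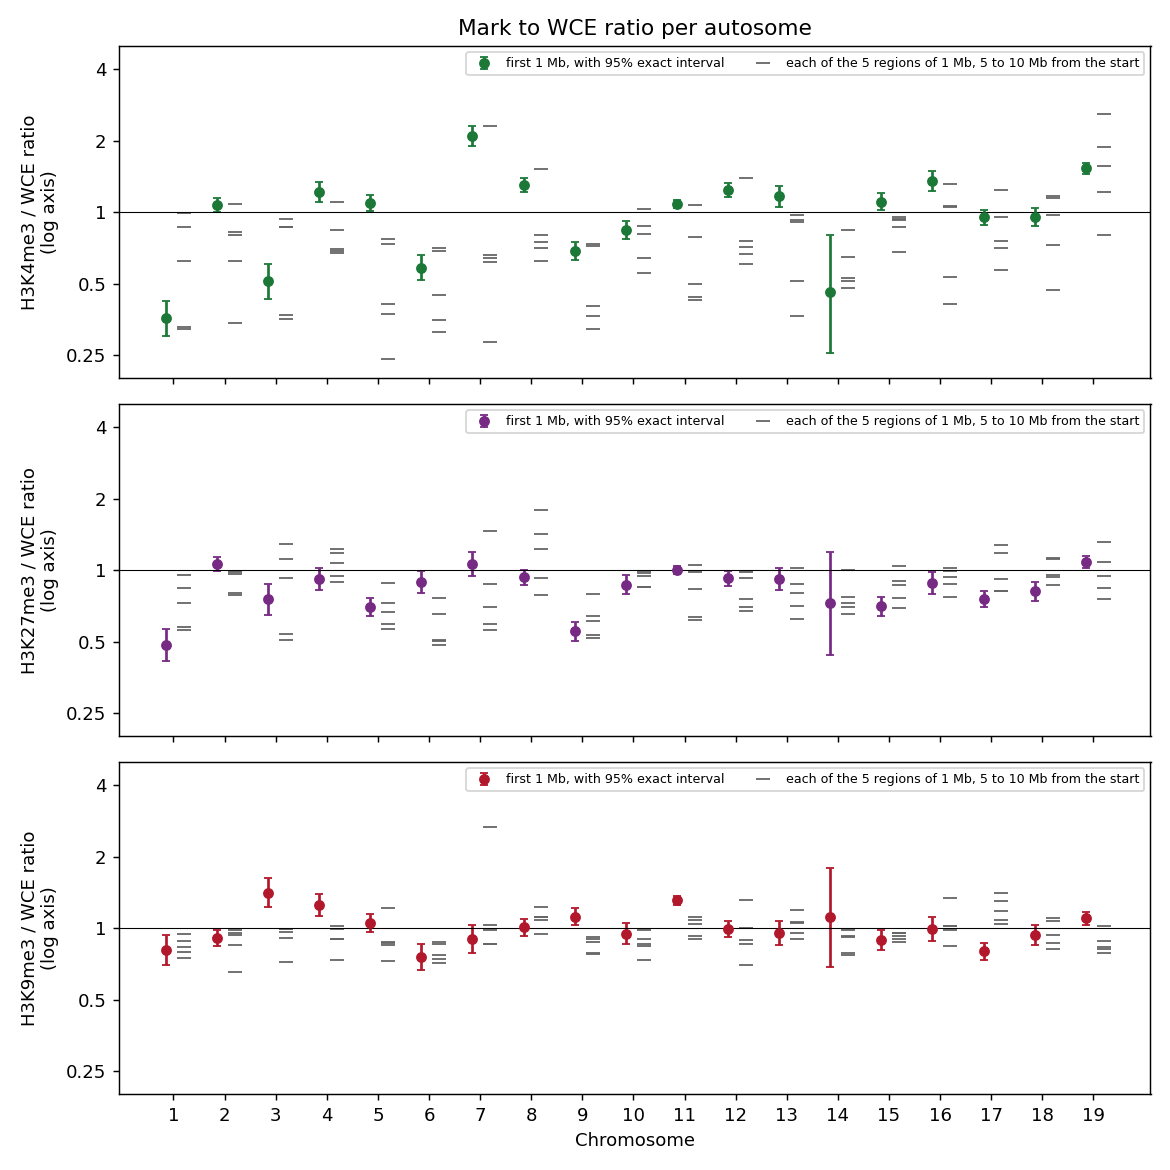
Mark to WCE ratio (log axis) of the first 1 Mb of each autosome (points, 95% exact interval) beside each of the 5 regions of 1 Mb that lie 5 to 10 Mb from the start (dashes). H3K9me3 starts lie above all 5 dashes on 6 chromosomes (3, 4, 9, 11, 14 and 19), below all on chromosome 17 and among them on 12. Chromosome 14 rests on 33 H3K9me3 and 42 WCE reads, with an interval that includes 1 (0.684 to 1.80).

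H3K4me3 was called in more tiles than the other marks. In the starts 126 of 3725 tested tiles were called (3.38%), against 348 of 21148 (1.65%) further in and 2.33% of all tiles tested. They lay on 16 of the 19 autosomes, with 19 on chromosome 11, 13 each on chromosomes 7 and 19, 12 on chromosome 8 and 0 on chromosomes 1, 3 and 14. These 126 tiles held 12358 H3K4me3 reads, 47.2% of those in the starts, against 1750 WCE reads, 7.63%. A large share follows from the calling, which picked tiles with many H3K4me3 reads. Outside tiles called for any mark lay 13280 of 26200 H3K4me3 reads at the starts and 57454 of 94177 further in. Of the 126, 56 adjoined another called tile and 70 stood alone, and their ratios ran between 2.47 and 48.2 with a median of 6.41. In the same tiles the pooled H3K27me3 ratio was 0.780 and the H3K9me3 ratio was 0.933. By distance, 5 called tiles lay in the first 100 kb (2.26% of those tested there), 5 in the second (1.57%), 22 between 200 and 300 kb (5.96%), 19 in the following bin (5.08%), and 8 to 16 in each of the others.

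Among the tiles with the highest H3K4me3 ratio, that on chromosome 11 at 3188001 to 3192000 held 266 H3K4me3, 26 H3K27me3 and 16 H3K9me3 reads against 22 WCE reads (ratio 11.7, 7.54 to 18.9). On chromosome 10 the tile at 3132001 to 3136000 held 265 H3K4me3 reads against 21 WCE reads, a ratio of 12.2, and it was the single called tile of that start. On chromosome 12 the tile at 3424001 to 3428000 held 217 against 15 (13.96, 8.28 to 25.4). On chromosome 2 the tile at 3200001 to 3204000 held 203 against 15 (13.1, 7.73 to 23.8). Closest to the edge among these was the tile at 3068001 to 3072000 on chromosome 17, with 135 H3K4me3, 6 H3K27me3 and 5 H3K9me3 reads against 9 WCE reads (14.5, 7.40 to 32.3). The largest ratio, 48.2 on chromosome 5 at 3344001 to 3348000, rested on 50 H3K4me3 reads and a single WCE read, so its interval ran from 8.27 to 1943.

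Over the whole first 1 Mb the H3K4me3 ratio was 1.10 (1.08 to 1.12), against 0.879 further in, and the start over further in was 1.25 (1.23 to 1.28, two-sided Fisher's exact test on reads, p = 2.27e-111). Outside tiles called for any mark the H3K4me3 ratio was 0.620 at the starts and 0.566 further in, both below 1 by construction since the calls took out the tiles with high ratios, and the start over further in was 1.10 (1.07 to 1.12). The H3K4me3 excess did not end with the first 1 Mb: the ratio was 1.21 in the next 1 Mb and in the one after it, then 1.003 and, from 4 to 5 Mb, 0.867. By chromosome, H3K4me3 was higher at the start on 11 chromosomes and lower on 2 (adjusted p from Fisher's exact test). The highest was chromosome 5 at 1.83 (1.66 to 2.03), and the lower ones were chromosome 1 at 0.529 (0.445 to 0.628) and chromosome 3 at 0.663 (0.558 to 0.788). Of these 13 chromosomes, 7 had a start ratio within the range of their own 5 regions of 1 Mb further in. When each start was instead compared with the rest of the autosomes, 7 were higher and 8 lower.

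H3K27me3 had few called tiles at the starts, at a share close to that further in. Of 3826 tested tiles 9 were called (0.235%), against 58 of 21382 (0.271%) further in and 0.624% of all tiles tested. The count was 14 with repeated reads kept and 30 with scaling by the median ratio of 100 kb bins. The 9 lay on chromosomes 11 and 19, with 4 each, and on chromosome 6, with 1. On chromosome 19 the tile at 3412001 to 3416000 held 55 H3K27me3, 19 H3K9me3 and 10 H3K4me3 reads against 10 WCE reads (ratio 5.58, 2.82 to 12.3), and that at 3992001 to 3996000 held 39 H3K27me3 and 5 H3K4me3 reads against 6 WCE reads (6.60, 2.77 to 19.1). On chromosome 11 all 4 lay between 3624001 and 3664000, and the adjoining tiles at 3656001 and 3660001 held 20 and 32 H3K27me3 reads against 2 and 5 WCE reads. No tile of the starts was called for both H3K4me3 and H3K27me3, which allows a share of up to 0.0632%, against 0.0211% further in (5 tiles) and 0.0471% of autosomal tiles, so no difference was detectable.

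The pooled H3K27me3 ratio of the starts was 0.890 (0.873 to 0.907), but with scaling by the median ratio of 100 kb bins it turned to 1.06, so its side of 1 depends on the scaling. Further in it was 0.930, and the start over further in was 0.957 (0.937 to 0.977, two-sided Fisher's exact test on reads, p = 3.43e-05). Without the first 100 kb it was 0.979 and missed the threshold, as it did at 0.989 without chromosome 8. H3K27me3 was higher at the start on 5 chromosomes and lower on 8, and 8 of these 13 starts lay within the range of their own 5 regions of 1 Mb further in. The highest was chromosome 6 at 1.45 (1.28 to 1.63) and the lowest was chromosome 1 at 0.634 (0.541 to 0.743), where H3K4me3 was low as well.

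Bins of 100 kb hold more reads than tiles, so a mark can be called lower than WCE as well as higher where reads suffice. At least 50 WCE reads lay in 133 of the 190 bins of the starts, against 21042 of 24633 autosomal bins. Sparse bins are harder to call, so the shares below are not compared at equal depth. A bin was called at an adjusted p under 0.05 in a two-sided exact binomial test with a ratio of at least 1.5 or at most its inverse. For H3K4me3, 38 of 189 tested bins of the starts were higher (20.1%, against 13.4% of autosomal bins) and 80 lower (42.3%, against 58.5%). For H3K27me3, 6 were higher (3.17%, against 9.31%) and 35 lower (18.5%, against 27.7%). For H3K9me3, 2 were higher (1.05%, against 3.89%) and 8 lower (4.21%, against 4.61%), and the 2 were the first bins of chromosomes 3 and 4. Because most bins lie below the autosomal mean, the median bin of the autosomes had a log2 ratio of -0.73 for H3K4me3, -0.26 for H3K27me3 and -0.08 for H3K9me3. Scaled by that median, the splits of higher and lower bins became 63 and 21 for H3K4me3, 16 and 16 for H3K27me3 and 4 and 5 for H3K9me3.

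On chromosome 11 each mark had its highest ratio in another bin. The first bin held 2939 H3K9me3 reads against 2903 WCE reads (1.43, under the ratio needed for a call), the second held 625 H3K4me3 reads against 151 (ratio 3.99, 3.34 to 4.80), and the bin from 3600001 held 418 H3K27me3 reads against 200 (2.12, 1.79 to 2.52). On chromosome 1 the whole start was below 1 for all 3 marks (adjusted p under 0.05 in the exact binomial test), at 0.357 for H3K4me3, 0.484 for H3K27me3 and 0.809 for H3K9me3. It had 7 H3K27me3 reads against 53 WCE reads in the bin from 3100001 (0.134, 0.0514 to 0.296) and an H3K4me3 ratio of 0.246 in the next. On chromosome 9 the bin from 3700001 was low for all 3 marks, at 0.291 for H3K4me3, 0.294 for H3K27me3 and 0.495 for H3K9me3.

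**Figure D4:**
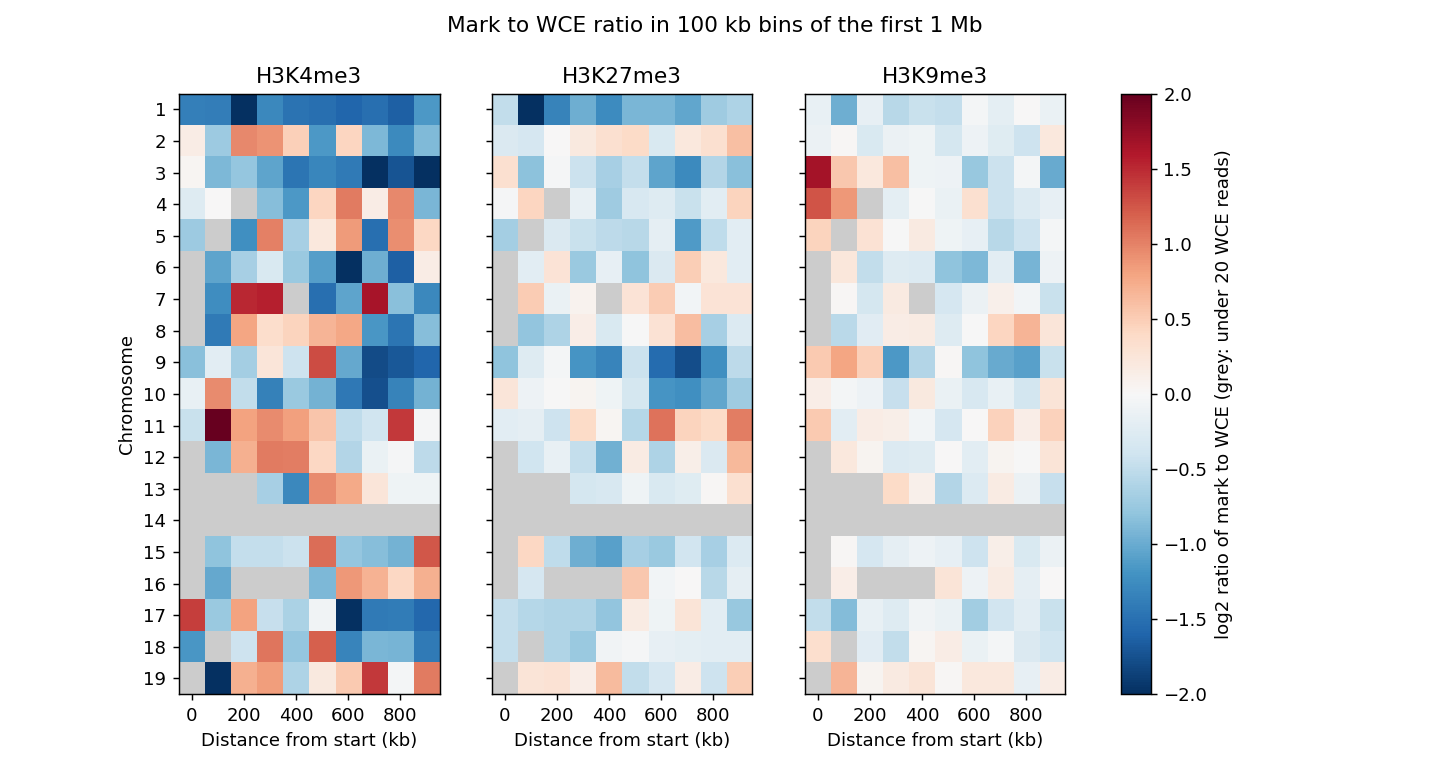
Log2 of the mark to WCE ratio (colour) in each 100 kb bin of the first 1 Mb (distance in kb across), one row per autosome and one panel per mark, with bins under 20 WCE reads in grey. The H3K9me3 bins with the highest ratios are the first ones of chromosomes 3 (3.17) and 4 (2.39), and for H3K4me3 the second bin of chromosome 11 (3.99).

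The comparison of marks with each other does not use WCE. Relative to further in, H3K9me3 reads per H3K27me3 read were 1.15 times as frequent at the starts (1.12 to 1.17), higher on 11 chromosomes and lower on 4. H3K9me3 reads per H3K4me3 read were 0.875 times as frequent (0.856 to 0.894), higher on 3 chromosomes and lower on 10.

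Reads that matched exactly 2 positions were kept apart and are listed at both. Reads that matched more were dropped by the authors' alignment settings, so highly repeated sequence is not measured in any library. In the first 100 kb there were 54.3 two-position listings per 100 one-position reads for H3K9me3, 48.9 for H3K27me3, 66.9 for H3K4me3 and 53.7 for WCE. Further in the values were 8.34, 6.98, 6.96 and 6.90. In WCE the start of chromosome 9 had 63.3 listings per 100 one-position reads, against 6.46 further in, whereas chromosomes 7 and 19 had fewer at the start than further in. Over 76 tests, two-position listings were more frequent at the start on 15 chromosomes in WCE and on 13 to 14 in the mark libraries, and less frequent on 2 in each library.

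Two-position reads, scaled by their own autosomal totals, gave an H3K9me3 ratio of 1.22 (1.16 to 1.29) in the first 100 kb and 0.945 (0.895 to 0.999) in the next 900 kb. H3K4me3 in the first 100 kb was at 1.13 (1.07 to 1.198) with these reads and at 0.771 with one-position reads. The two-position value rests on chromosomes 11 and 17: it was 1.001 without chromosome 11, 0.945 without chromosome 17 and 0.655 (0.599 to 0.715) without both, where one-position reads gave 0.688 (0.640 to 0.740). Two-position reads called 17 H3K4me3 tiles of 1665 in the starts (0.515% of all tiles tested were called), of which 11 were not called from one-position reads. They called 1 H3K27me3 tile of 1782 (0.0222% of all) and 0 H3K9me3 tiles of 1751 (0.00514% of all). On chromosome 11 the tile at 3020001 to 3024000 held 242 two-position H3K4me3 listings against 44 in WCE (6.26, 4.53 to 8.84), and its neighbour at 3024001 held 384 against 153 (2.86). On chromosome 17 the tile at 3040001 to 3044000 held 353 two-position listings against 78 (5.15) and, from one-position reads, 119 H3K4me3 reads against 22 (5.22). A two-position read cannot be placed at one of its positions, so these tiles share their reads with another site.

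**Figure D5:**
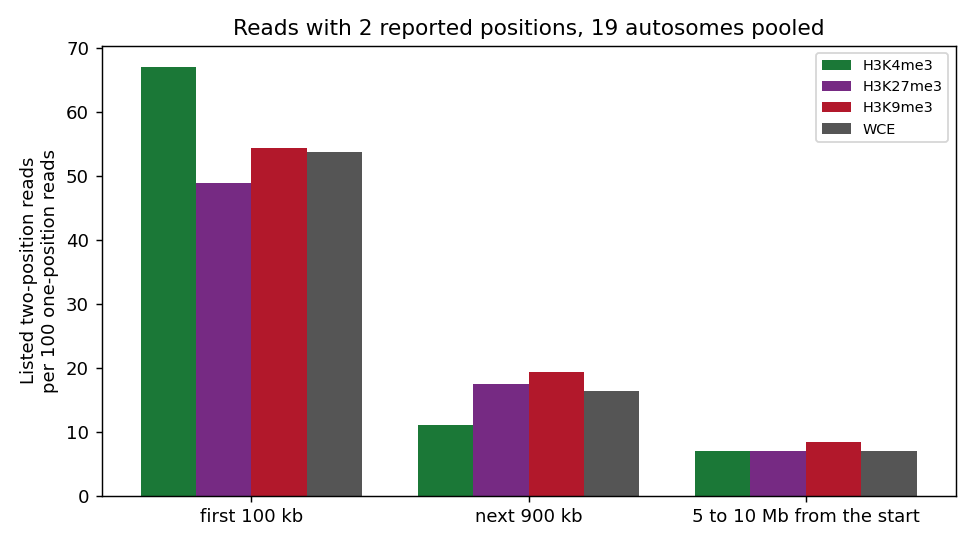
Two-position listings per 100 one-position reads (bars, 1 per library, with no error bars) in the first 100 kb, the next 900 kb and 5 to 10 Mb from the start, pooled over the 19 autosomes. In the first 100 kb the 4 libraries have 48.9 to 66.9 listings per 100 reads, against 6.90 to 8.34 further in.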

How the data were processed

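Per the file headers, the authors aligned reads with Bowtie (options e 70, k 2, m 2, n 2, l 36, best) to mm8. The deposited files list signed read positions, not counts, for reads with 1 and with 2 reported positions. Bowtie's version is not given in the sources used here. Positions were taken as counted from 0 and are printed from 1. One read was kept per chromosome, position and strand, moved 60 bp along its strand and counted in 4 kb tiles and 100 kb bins. Libraries were scaled by autosomal totals. Tests were exact binomial or Fisher's exact on reads, with Benjamini-Hochberg adjustment over all tiles of the genome, all autosomal bins or all chromosomes and marks. Start over further in is an odds ratio with a Woolf interval. Reads were made by 18 cycles of PCR and carry no molecular identifiers. Intervals rest on the reads of 1 library per group and cover counting error only. Tiles named are up to 10 called tiles per mark, by log2 ratio with 1 read added, that had at least 20 mark reads, the 5 fullest in WCE and the 5 with the most two-position reads. Bins named are the 5 highest and 5 lowest per mark with at least 50 WCE reads. The members and lists were chosen with earlier results of these data known, and the sets of WCE-rich tiles and runs, the first 20 kb of chromosome 3, the two-position calls and the values without chromosomes 11 and 17 were chosen after values were seen. The calling was tested on simulated reads. Alternatives changed repeats, scaling, shift, read kind, thresholds, tile size, comparison region and chromosomes. Computation used scipy 1.17.1 and numpy 2.4.6 under Python 3.11.15, and plots used matplotlib 3.10.9.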

Additional observations from a re-analysis of the deposited data

How the results depend on the processing

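Each group held 1 library, and no paired analysis was possible because no group has a second replicate. Leaving out 1 autosome at a time moved the start ratio between 1.05 and 1.13 for H3K4me3, 0.864 and 0.910 for H3K27me3, and 0.985 (without chromosome 11) and 1.07 for H3K9me3. The start over further in moved between 1.23 and 1.29, 0.927 and 0.989 (without chromosome 8, where the call was lost), and 1.03 and 1.14. For two-position listings per one-position read, the odds ratio of start against further in was taken. With all autosomes it was 2.78 for H3K4me3, 3.38 for H3K27me3, 3.52 for H3K9me3 and 3.51 for WCE. It stayed between 2.54 and 3.17 for H3K4me3 and between 3.15 and 3.998 for H3K27me3. For H3K9me3 it stayed between 3.14 and 4.23, and for WCE between 3.17 and 4.33. H3K9me3 over H3K4me3 stayed between 0.827 and 0.897, H3K9me3 over H3K27me3 between 1.12 and 1.17, and H3K27me3 over H3K4me3 between 0.734 and 0.792.

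Of the pooled values, the H3K4me3 start ratio was 0.620 in tiles called for no mark, which follows from taking out the tiles with high ratios, and turned, in a choice made after seeing the data, to 0.771 in the first 100 kb alone, where its start over further in was 0.877, or 0.938 without chromosome 11. The H3K27me3 start ratio turned to 1.06 with median scaling. The H3K9me3 start ratio turned to 0.945 without the first 100 kb and 0.957 without the 1% of tiles with the most WCE reads, and its start over further in to 0.990 and 0.993. The H3K27me3 start over further in was 0.979 without the first 100 kb. The cause was not tested.

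Called tiles numbered 81 for H3K4me3, 17 for H3K27me3 and 3 for H3K9me3 with 20 kb tiles, 1 for H3K27me3 with 1 kb tiles, 5 for H3K27me3 and 3 for H3K9me3 at an adjusted p under 0.01, 3 for H3K9me3 at a ratio of at least 3, and 14 and 30 for H3K27me3 with repeats kept and with median scaling. Bins with a ratio threshold of 2 were 17 higher and 52 lower for H3K4me3, 2 and 16 for H3K27me3, and 3 lower for H3K9me3. At an adjusted p under 0.01, 2 were lower for H3K9me3. With median scaling they were 63 and 21, 16 and 16, and 4 and 5.

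Chromosomes higher or lower at the start, against the rest of the autosomes, were 7 and 8 for H3K4me3, 0 higher for H3K27me3 and 5 lower for H3K9me3. Against 5 to 10 Mb of the chromosome, 4 were lower for H3K4me3 and 4 for H3K9me3. In tiles called for no mark, 7 were higher and 4 lower for H3K4me3. H3K9me3 was higher on 2 without the WCE-rich tiles and on 1 without the first 100 kb. Single chromosomes turned round against the rest of the autosomes for H3K4me3 (0.638 on 6, 0.661 on 9, 0.849 on 17, 0.862 on 10, 0.870 on 11, 1.33 on 19), H3K27me3 (0.691 on 5, 0.883 on 11, 0.889 on 6, 0.974 on 12) and H3K9me3 (0.982 on 5). Against 5 to 10 Mb they did for H3K4me3 (0.918 on 11), H3K27me3 (0.911 on 11, 0.970 on 6, 1.02 on 4, 1.27 on 8) and H3K9me3 (1.15 on 8). In tiles called for no mark H3K4me3 turned to 0.854 on 17, 0.863 on 18, 0.974 on 12 and 1.202 on 19. Without the WCE-rich tiles H3K4me3 turned to 1.33 on 19 and H3K9me3 to 0.912 on 9. Without the first 100 kb H3K4me3 turned to 0.879 on 17 and H3K9me3 to 0.867 on 9. The other 156 values of the 28 main results kept their direction and side, or, for counts, stayed within 1.5 times. Among single chromosomes and tiles, 631 values kept theirs, 35 lost the call and 23 gained one. Tiles held a median of 3 WCE reads, so weak enrichment in a single tile was not detectable at this depth.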
